A study of Amorphotheca resinae with 20 samples.

Results

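In the filamentous fungus Amorphotheca resinae ZN1, wild type, 24 of 18830 genes had a mean RNA level that was well above the control with formic acid and near or below it with acetic acid, and that deviated less with each of 5 other inhibitors found in plant hydrolysates. The genes were chosen from the measurements themselves. For each gene and inhibitor, R was taken as log2 of the ratio of mean CPM (counts scaled to a common library total) with the inhibitor to that in its own control, after adding 1 to both. A gene belonged to the group if R with formic acid was at least 1.5, if this was its largest R in size among the 7 inhibitors, and if R with acetic acid was under 0.5. All 7 contrasts entered the choice, so the fold changes and counts of calls given here describe the 24 genes and test nothing about them as a group.

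RNA was sequenced from mycelia collected at 4 h from cultures at 28 °C in potato-dextrose medium, in 20 libraries, with 2 libraries in each of 10 groups. The weak acid experiment held formic acid at 4.0 g/L (86.9 mmol/L), acetic acid at 2.0 g/L (33.3 mmol/L) and an untreated control, so the acids were given at different doses. A furan experiment held furfural and hydroxymethylfurfural (HMF), each at 1.0 g/L, and its own control, and a phenolic aldehyde experiment compared its own control with 0.1 g/L of syringaldehyde, vanillin or 4-hydroxybenzaldehyde. Library totals ran from 11601181 to 26106956 counts over all experiments. The labels do not say whether the 2 libraries of a group came from separate cultures, so their spread may be technical, and in bulk RNA fewer cells of a type and less RNA per cell cannot be told apart.

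Weak acids enter fungal cells mainly in their undissociated form and release protons and the acid anion in the cytosol, which the cell must pump out or metabolise. Acetate can be activated to acetyl-CoA and used as a carbon source, whereas formate gives fungi little carbon, is oxidised to CO2 by formate dehydrogenase and is known to inhibit mitochondrial cytochrome c oxidase. The question behind the weak acid experiment is which genes of a fungus able to remove such inhibitors respond to each acid. The deposited counts carry identifiers without product names, and 0 of the 18830 identifiers matched the RefSeq gene table of the species, so the genes are described by identifier and no function is given to any of them.

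R with formic acid reached 1.5 in 121 genes. Formic acid gave the largest R of the 7 inhibitors in 93 of these, and 24 of the 93 also had an R with acetic acid under 0.5. The other 69 of the 93 had an R with acetic acid of 0.5 or more. A further 13 genes met both acid thresholds but had a larger R elsewhere, 4 each with vanillin, 4-hydroxybenzaldehyde and syringaldehyde and 1 with furfural. The choice leaned on 1 library: without weak acid control replicate 1 the rule gave 13 genes, 12 of them among the 24.

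**Figure D1:**
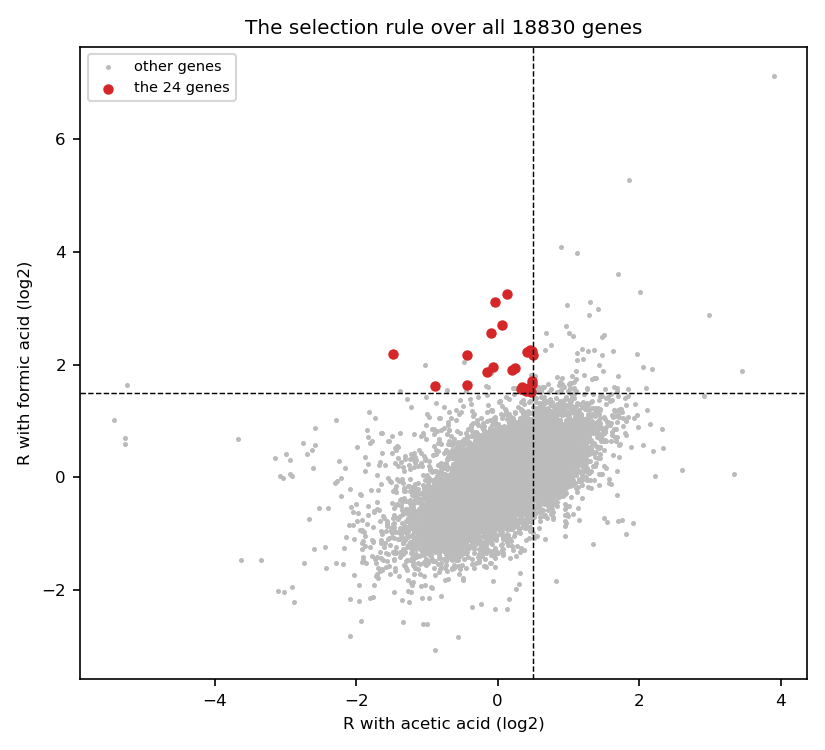
R with acetic acid (x axis, log2) against R with formic acid (y axis, log2) for all 18830 genes, one point per gene. Dashed lines mark the thresholds of 0.5 and 1.5; the 24 chosen genes are in red, and 9 of them lie between 0.4 and 0.5 on the x axis.

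Genes on either side of the thresholds had nearly the same values. Just inside the formic acid threshold were ARZ_10024_T1 (R 1.51) and ARZ_11146_T1 (1.53), and just outside it ARZ_13612_T1 (1.48) and ARZ_892_T1 (1.46). Just inside the acetic acid threshold were ARZ_9278_T1 (R with acetic acid 0.50, unrounded under the threshold) and ARZ_1429_T1 (0.49), and just outside it ARZ_6452_T1 (0.51) and ARZ_9392_T1 (0.52). By the condition that formic acid give the largest R in size, ARZ_15220_T1 and ARZ_9560_T1 were kept by margins of 0.0426 and 0.0841. ARZ_11961_T1 and ARZ_5132_T1 were left out, since furfural (1.72 in size) and 4-hydroxybenzaldehyde (1.83 in size) exceeded their formic acid values of 1.59 and 1.61.

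The 24 genes together took 0.295% and 0.354% of the counts in the formic acid libraries. In the weak acid control they took 0.0713% and 0.0949%, with acetic acid 0.0817% and 0.0901%, and in the 14 libraries of the other experiments from 0.0639% to 0.106%. The formic acid libraries were thus the highest of the 20 for the summed level. The median of the group means over the 24 genes was 22.6 CPM in the weak acid control, 23.1 CPM with acetic acid and 108 CPM with formic acid. Over the 16714 genes tested those medians were 21.2, 21.9 and 20.9 CPM.

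Each of the 24 genes had both formic acid libraries above both control libraries, as did 27.5% of all genes. In 23 of 24 they were above both acetic acid libraries, as in 24.5% of all genes, the exception being ARZ_4941_T1. Of the 24, 22 had them above all 6 control libraries of the 3 experiments, as did 8.83% of all genes. Above every one of the 18 other libraries stood 21 of 24, against 2.8% of all genes. The rule favours such genes, and levels set across experiments carry any difference between the experiments. In the edgeR quasi-likelihood fit of the weak acid experiment, 22 of the 24 were called higher with formic acid than in the control, where 39.7% of 16714 genes tested were called and 20.9% were called higher. The fitted log2 fold changes ran from 1.68 to 4.04, with a median of 2.19, and the 22 calls were still made when any 1 of the 4 libraries compared was left out.

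**Figure D2:**
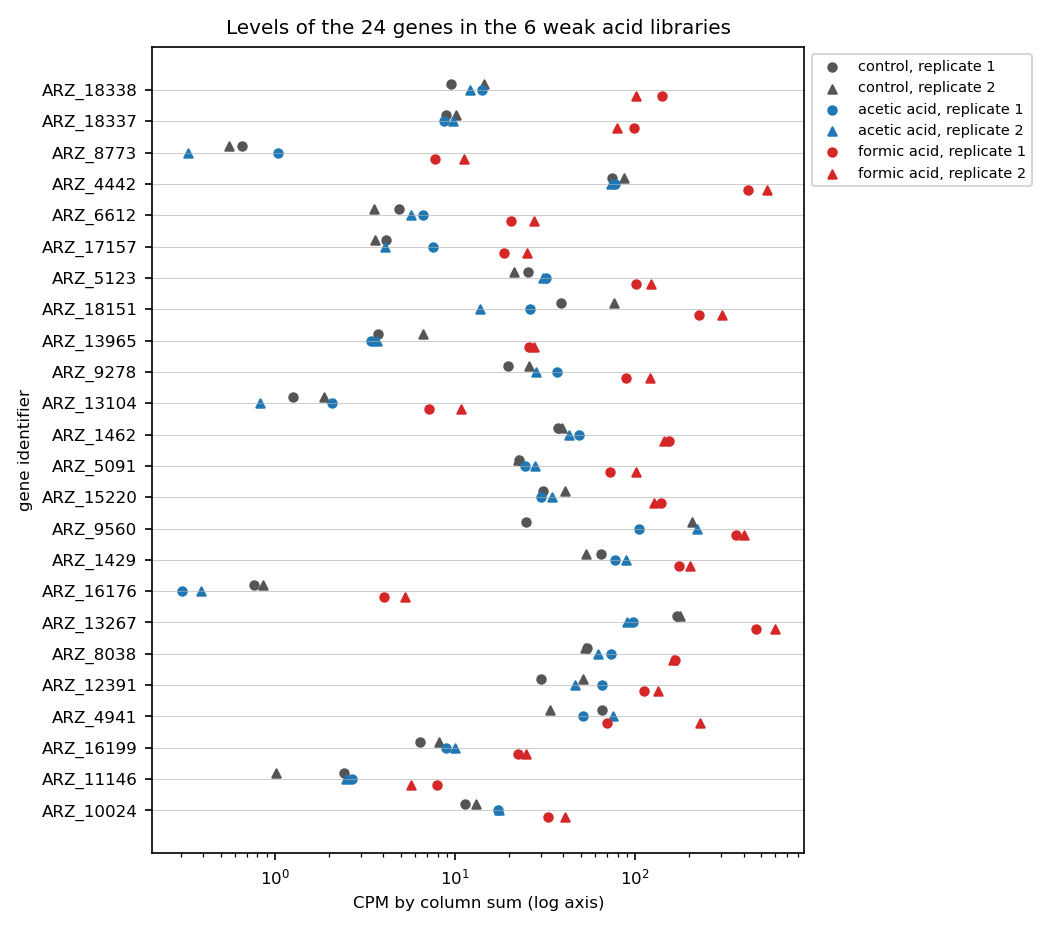
CPM by column sum (x axis, log scale) of the 24 genes (rows, ordered by R with formic acid) in the 6 weak acid libraries, with circles for replicate 1 and triangles for replicate 2. Both formic acid points lie to the right of both control points in all 24 rows; for ARZ_4941_T1 the lower of them, 70.0 CPM, falls below an acetic acid point at 75.0 CPM.

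The 3 largest R values belonged to genes at low levels in the control, ARZ_18338_T1, ARZ_18337_T1 and ARZ_8773_T1. ARZ_18338_T1 stood at 9.47 and 14.4 CPM in the control libraries, at 14.1 and 12.2 CPM with acetic acid, and at 141 and 102 CPM with formic acid. ARZ_18337_T1, the only other gene of the 24 with a neighbouring identifier number, stood at 8.86 and 10.1 CPM in the control, 8.64 and 9.78 CPM with acetic acid, and 98.4 and 79.8 CPM with formic acid. In both genes the control and acetic acid libraries overlapped and the formic acid libraries stood apart, with fitted log2 fold changes over the control of 3.43 ± 0.20 (SE) and 3.32 ± 0.17. Outside the weak acid experiment the levels of both were lower still, from 1.51 to 3.95 CPM for ARZ_18338_T1 and from 1.03 to 5.17 CPM for ARZ_18337_T1, and the weak acid control libraries were above all 14 libraries of the other experiments. ARZ_18336_T1, the next lower number, was not in the group. It had an R of 1.16 with formic acid and −0.52 with acetic acid, and a mean of 57.7 CPM with formic acid against 25.3 CPM in the control. Whether the numbers follow the order of genes in the genome is not stated.

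**Figure D3:**
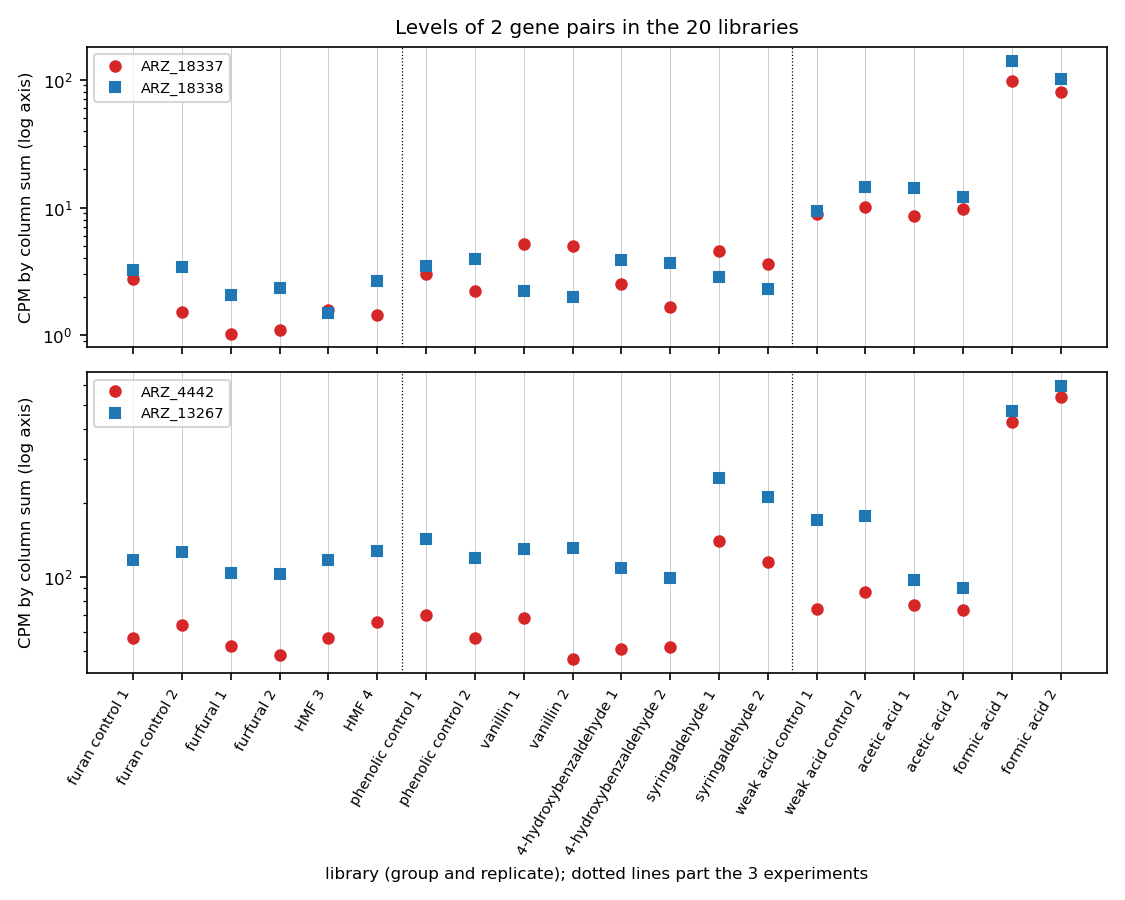
CPM by column sum (y axis, log scale) of ARZ_18337_T1 and ARZ_18338_T1 (upper panel) and of ARZ_4442_T1 and ARZ_13267_T1 (lower panel) in each of the 20 libraries (x axis). The upper pair lies between 1.03 and 5.17 CPM in the furan and phenolic aldehyde experiments and reaches 79.8 to 141 CPM with formic acid; the lower pair is highest with formic acid and next highest with syringaldehyde.

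ARZ_4442_T1 and ARZ_13267_T1 were the most abundant members with formic acid. ARZ_4442_T1 was at 74.4 and 86.6 CPM in the control, 76.9 and 73.6 CPM with acetic acid and 425 and 539 CPM with formic acid, a log2 fold change over the control of 2.67 ± 0.17. ARZ_13267_T1 was at 171 and 177 CPM in the control, 97.4 and 90.1 CPM with acetic acid and 471 and 595 CPM with formic acid (log2 fold change 1.71 ± 0.16). The acids moved ARZ_13267_T1 in opposite directions, since it was also called lower with acetic acid than in the control (−0.88 ± 0.16), a call made in every fit that left out 1 of the 4 libraries. Neither gene's formic acid libraries overlapped with any other library of the 20. Their next highest values were with syringaldehyde, at 140.4 and 114 CPM for ARZ_4442_T1 against 70.4 and 56.7 CPM in that experiment's control, and at 253 and 212 CPM for ARZ_13267_T1 against 142 and 119 CPM. Both were called higher with syringaldehyde (log2 fold changes 1.02 ± 0.20 and 0.85 ± 0.17), and without phenolic aldehyde control replicate 2 both calls were lost (edgeR quasi-likelihood adjusted p = 0.0580 and 0.0583).

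ARZ_18151_T1 had the lowest R with acetic acid of the group, −1.47. Its libraries held 38.7 and 76.0 CPM in the control, 26.2 and 13.8 CPM with acetic acid and 227 and 303 CPM with formic acid. Formic acid gave the highest values and acetic acid the lowest of the experiment, without overlap between groups, but the control libraries differed by 1.96-fold. The log2 fold change was 2.29 ± 0.48 with formic acid and −1.52 ± 0.49 with acetic acid, which missed the threshold (edgeR quasi-likelihood adjusted p = 0.0714) and passed it without control replicate 1 or without acetic acid replicate 1. The same gene was at 72.7 and 65.8 CPM with furfural against 36.5 and 46.3 CPM in the furan control (called higher, 0.82 ± 0.15) and at 11.0 and 12.9 CPM with vanillin against 48.8 and 24.8 CPM in its control (called lower, −1.64 ± 0.29, lost without vanillin replicate 1 at an edgeR quasi-likelihood adjusted p of 0.0632). It was thus one of 2 members called in both directions among the furans and phenolic aldehydes.

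A set of more abundant genes rose with formic acid with small gaps between replicates. ARZ_8038_T1 held 54.1 and 53.0 CPM in the control, 73.9 and 62.3 CPM with acetic acid and 166 and 162 CPM with formic acid. ARZ_1462_T1 held 37.3 and 39.3 CPM in the control, 48.5 and 42.9 CPM with acetic acid and 153 and 144 CPM with formic acid. ARZ_1429_T1 held 64.6 and 53.3 CPM in the control, 77.1 and 89.1 CPM with acetic acid and 175 and 202 CPM with formic acid. In these 3 genes the groups fell in the same order without overlap, control below acetic acid below formic acid. This was not particular to the more abundant genes, since the scarcer ARZ_10024_T1, ARZ_6612_T1, ARZ_16199_T1 and ARZ_11146_T1 showed it too. The share of all genes with this order was not counted and the rule favours formic acid on top, so the order only describes the genes named. The formic acid libraries of ARZ_8038_T1 and ARZ_1462_T1 differed by 1.02-fold and 1.06-fold, among the smallest gaps of the group.

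The same order held for ARZ_5123_T1 (25.4 and 21.2 CPM in the control, 32.0 and 30.9 CPM with acetic acid, 101 and 123 CPM with formic acid). It held too for ARZ_9278_T1 (19.6 and 25.6, then 36.6 and 28.1, then 88.9 and 120.4 CPM) and ARZ_5091_T1 (22.8 and 22.2, then 24.5 and 27.8, then 72.7 and 102 CPM). For ARZ_12391_T1 the control (29.9 and 51.4 CPM) and acetic acid (65.2 and 46.3 CPM) overlapped, and formic acid gave 113 and 134 CPM. ARZ_15220_T1 also overlapped between control (31.0 and 40.5 CPM) and acetic acid (30.1 and 34.4 CPM), and stood at 139 and 127 CPM with formic acid. Fitted log2 fold changes over the control with formic acid were 2.35 ± 0.15, 2.29 ± 0.19, 2.04 ± 0.17, 1.69 ± 0.24 and 1.98 ± 0.16 for these genes in the order named.

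Another 5 genes lay between 18.8 and 40.9 CPM with formic acid. ARZ_10024_T1 was at 11.4 and 13.1 CPM in the control, 17.3 and 17.6 CPM with acetic acid and 33.0 and 40.9 CPM with formic acid. ARZ_13965_T1 was at 3.72 and 6.61 CPM in the control, 3.41 and 3.70 CPM with acetic acid and 25.8 and 27.5 CPM with formic acid. Its acetic acid libraries lay just below the lower control library and well below the other. The log2 fold change with acetic acid was −0.53 ± 0.26, not called. It ran from −0.90 to −0.03 when each library was left out, the former without control replicate 1 and called. The formic acid libraries of ARZ_6612_T1 held 20.5 and 27.6 CPM, those of ARZ_16199_T1 22.2 and 24.7 CPM and those of ARZ_17157_T1 18.8 and 25.2 CPM. In the control these 3 genes had 4.87 and 3.56, 6.40 and 8.19, and 4.16 and 3.61 CPM, in the order named. With acetic acid ARZ_6612_T1 had 6.63 and 5.69 CPM, ARZ_16199_T1 a mean of 9.44 ± 0.79 CPM (SD, n = 2) and ARZ_17157_T1 7.55 and 4.09 CPM. The acetic acid libraries stood above both control libraries in ARZ_6612_T1 and ARZ_16199_T1 and overlapped with them in ARZ_17157_T1. All 5 genes of the set were called higher with formic acid, with log2 fold changes from 1.68 ± 0.17 for ARZ_10024_T1 to 2.60 ± 0.22 for ARZ_6612_T1.

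At the lowest levels the values rest on few reads. ARZ_8773_T1 had 12 and 11 reads in the control, 17 and 6 with acetic acid and 157 and 206 with formic acid, the largest fitted log2 fold change of the group (4.04 ± 0.39). Its R was 2.70, since the 1 CPM added to both means holds R down at such levels. ARZ_16176_T1 had 14 and 17 reads in the control, 5 and 7 with acetic acid and 81 and 97 with formic acid (2.58 ± 0.38). ARZ_13104_T1 had 23 and 37, 34 and 15, and 145 and 198 reads (2.59 ± 0.35), and ARZ_11146_T1 had 44 and 20, 44 and 45, and 161 and 105 reads (2.10 ± 0.34), in the same order of groups. The formic acid libraries stood above the rest of the weak acid experiment in all 4. ARZ_13104_T1 and ARZ_11146_T1 reached 7.53 CPM in a vanillin library and 7.39 CPM in a phenolic aldehyde control library, above their lower formic acid libraries at 7.18 and 5.70 CPM. For ARZ_11146_T1 the direct difference between the acids was lost without formic acid replicate 1 (edgeR quasi-likelihood adjusted p = 0.0635).

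In 2 of the 24 genes, those not called higher with formic acid, the fold change over the control turned on a single library. ARZ_9560_T1 was at 24.8 and 206 CPM in the control, 105 and 219 CPM with acetic acid and 362 and 400.3 CPM with formic acid, so the control libraries differed 8.32-fold. Its log2 fold change with formic acid was 1.80 ± 1.21 and was not called (edgeR quasi-likelihood adjusted p = 0.337). Without control replicate 2 it was 4.05, and called, and leaving out each library in turn gave 0.95 to 4.05. ARZ_4941_T1 was at 65.7 and 33.7 CPM in the control, 51.6 and 75.0 CPM with acetic acid and 70.0 and 229.9 CPM with formic acid. Its formic acid libraries differed 3.28-fold and the lower lay below 1 acetic acid library. The log2 fold change was 1.69 ± 0.80, not called (edgeR quasi-likelihood adjusted p = 0.199), and ran from 0.59 to 2.33 when each library was left out, the latter without formic acid replicate 1 and called. Both genes also varied between replicates elsewhere, with 22.3 and 115 CPM for ARZ_9560_T1 with syringaldehyde, and 223 and 87.1 CPM for ARZ_4941_T1 in the phenolic aldehyde control. Without both genes the summed share of the counts was 0.252% and 0.291% with formic acid, and 0.0535% to 0.0801% in the other 18 libraries. Whether a gene met the rule also turned on single libraries beyond these 2 genes. Of the 6 repeats that each left out 1 weak acid library, ARZ_12391_T1 and ARZ_4941_T1 met the rule in 2. ARZ_9560_T1, ARZ_11146_T1 and ARZ_10024_T1 met it in 3, and 9 of the 24 genes met it in all 6.

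With acetic acid the fitted log2 fold changes of the 24 genes ran from −1.52 to 0.62 with a median of 0.32, and some were called, so a description as genes not induced by acetic acid holds for them only as the rule defines it. The rule allows an R up to 0.5, and 16 of the 24 had an R with acetic acid above 0, with 12 at 0.25 or more. The edgeR fit called 5 of 24 higher with acetic acid than in the control, beside 19.7% of all genes tested, and 1 lower, beside 18.3% (37.9% called in all). The 5 called higher were ARZ_9278_T1 (log2 fold change 0.53 ± 0.18), ARZ_10024_T1 (0.52 ± 0.17), ARZ_1429_T1 (0.51 ± 0.15), ARZ_5123_T1 (0.45 ± 0.15) and ARZ_8038_T1 (0.36 ± 0.14), and the 1 called lower was ARZ_13267_T1. Each of the 5 calls was lost when at least 1 particular library of the 4 compared was left out. Some other members were called in such a fit though not in the full fit. Without control replicate 2 the log2 fold change was 2.74 for ARZ_9560_T1 and 0.93 for ARZ_12391_T1. Without control replicate 1 it was 1.33 for ARZ_11146_T1 and 0.78 for ARZ_6612_T1, but −0.90 for ARZ_13965_T1 and −1.94 for ARZ_18151_T1. Without acetic acid replicate 2 it was 0.96 for ARZ_17157_T1. For 13 of the 24 the 95% interval of the acetic acid fold change lay within 2-fold either way. ARZ_18337_T1 (−0.02, interval −0.39 to 0.34) and ARZ_4442_T1 (−0.08, interval −0.42 to 0.25) had estimates close to 0.

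Set directly against acetic acid in the same fit, 22 of the 24 were called higher with formic acid, beside 13.3% of genes tested (25.1% called in either direction). The log2 differences ran from 1.15 to 3.88 with a median of 1.95, and for 17 genes the 95% interval lay wholly above 2-fold. The widest gaps were at ARZ_8773_T1 (3.88, interval 3.06 to 4.71), ARZ_18151_T1 (3.81, interval 2.44 to 5.18), ARZ_16176_T1 (3.79, interval 2.85 to 4.72) and ARZ_18337_T1 (3.34, interval 2.99 to 3.70). The smallest called gap was at ARZ_10024_T1 (1.15 ± 0.17). The uncalled genes were again ARZ_9560_T1 (1.31, interval −2.32 to 4.94) and ARZ_4941_T1 (1.32, interval −1.06 to 3.70). These comparisons share libraries with the comparisons against the control, and the molar doses of the acids differed, so a difference at equal dose was not measured.

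**Figure D4:**
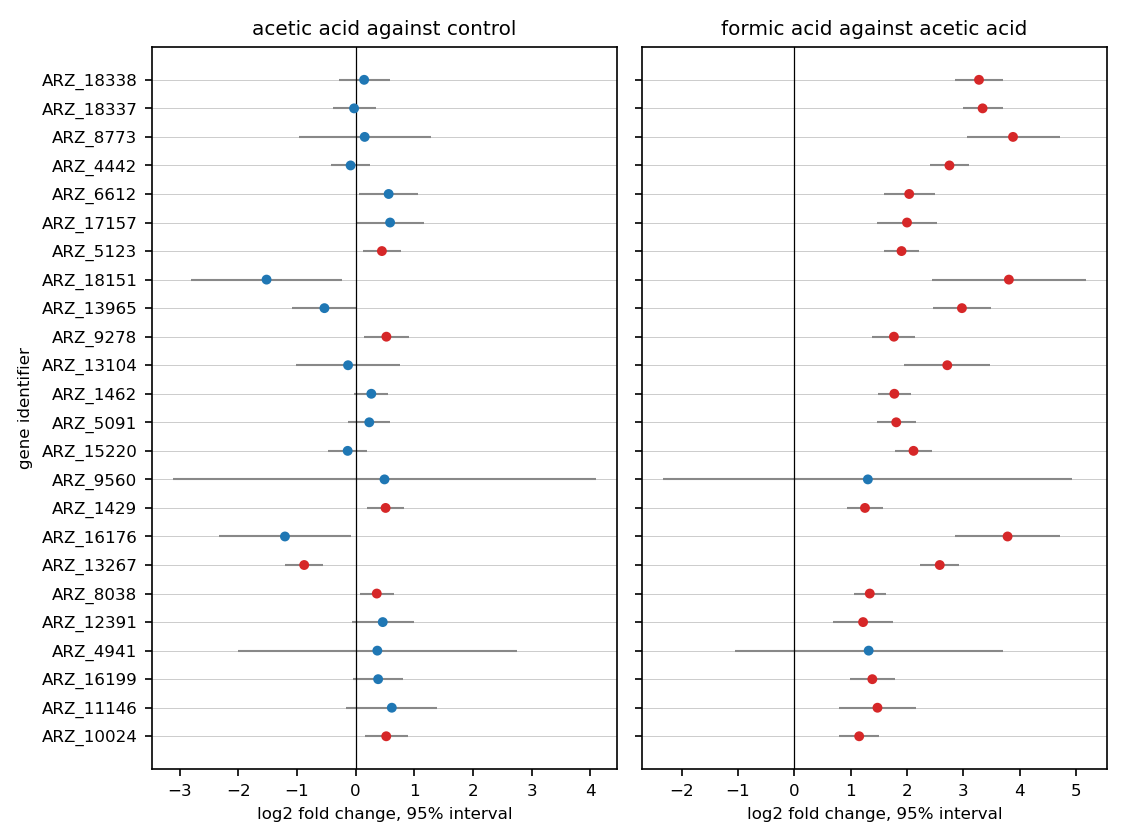
Fitted log2 fold changes (x axes) with 95% intervals (bars) of the 24 genes (rows) for acetic acid against the control (left) and formic acid against acetic acid (right), with calls at an adjusted p under 0.05 in red and the rest in blue. On the left most points lie within 1 of 0, from −1.52 to 0.62, and on the right all lie above 1, from 1.15 to 3.88, with bars crossing 0 for ARZ_9560_T1 and ARZ_4941_T1.

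Under the furans and phenolic aldehydes the 24 genes did not move as a block. The rule capped the size of these responses below that of formic acid but left their sign free. Of the 24, 8 were called under none of the 5 inhibitors, as were 43.5% of the 16351 genes tested with all 5. Another 10 were called higher under at least 1 and lower under none (24.4% of those genes), 4 the reverse (26.0%) and 2 in both directions (6.04%). No other inhibitor gave an R of 1 or more in size for 14 of the 24. The genes called under none of the 5 included the adjacent pair ARZ_18337_T1 and ARZ_18338_T1, and also ARZ_6612_T1, ARZ_13965_T1, ARZ_13104_T1, ARZ_1462_T1, ARZ_8038_T1 and ARZ_10024_T1.

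**Figure D5:**
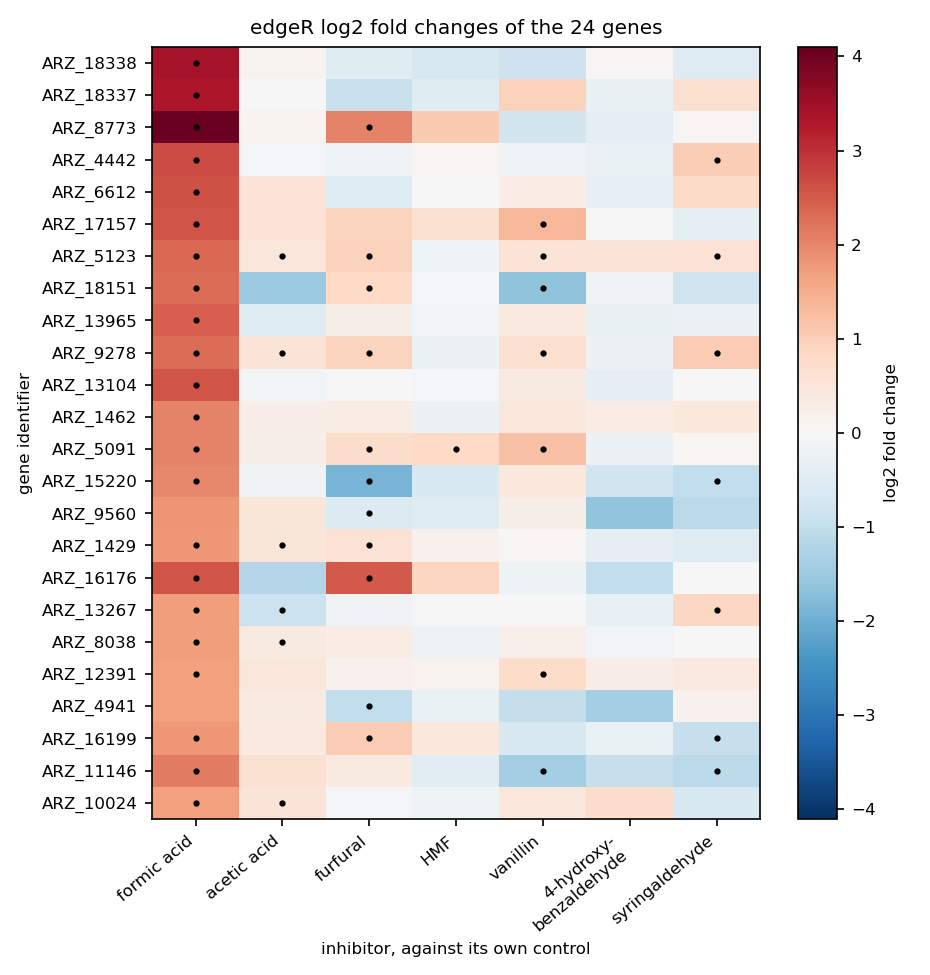
Fitted log2 fold changes (colour) of the 24 genes (rows) with each of the 7 inhibitors against its own control (columns); dots mark calls at an adjusted p under 0.05. The formic acid column is positive throughout, from 1.68 to 4.04, while the furfural column runs from −1.91 to 2.50 and the 4-hydroxybenzaldehyde column holds no dot.

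Furfural was the inhibitor after formic acid with the most calls, 8 of 24 higher and 3 lower, beside 17.4% and 16.9% of 16398 genes tested (34.3% in all). ARZ_5123_T1 was at 85.4 and 80.9 CPM with furfural against 42.1 and 49.2 CPM in the furan control, a log2 fold change of 0.94 ± 0.14, and ARZ_9278_T1 was at 42.5 and 46.1 CPM against 24.6 and 25.0 CPM (0.92 ± 0.16). ARZ_16199_T1 rose from 6.24 and 7.69 CPM to 14.9 and 12.3 CPM (1.04 ± 0.25). Furfural also raised the scarce ARZ_16176_T1, from 0.638 and 0.457 CPM to 2.41 and 3.54 CPM (2.50 ± 0.56), and ARZ_8773_T1 (2.02 ± 0.51), a call lost without furan control replicate 1 (edgeR quasi-likelihood adjusted p = 0.0756). The strongest fall was at ARZ_15220_T1, from 30.4 and 21.2 CPM to 8.19 and 4.94 CPM (−1.91 ± 0.24). In these 6 genes, all among those called, the furfural libraries did not overlap with their controls. The share of all genes without such overlap was not counted. ARZ_4941_T1 was called lower too, at 21.1 and 25.9 against 53.6 and 47.6 CPM (−1.02 ± 0.15), and ARZ_9560_T1 was called lower by −0.56 ± 0.19, a call lost in 3 of 4 fits that left out a library. The remaining calls were ARZ_1429_T1 (0.61 ± 0.13), ARZ_18151_T1 and ARZ_5091_T1, all higher.

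HMF gave 1 call among the 24, which was higher, beside 8.45% of genes tested (5.0% higher and 3.45% lower). This was ARZ_5091_T1, at 42.1 and 41.0 CPM against 23.8 and 23.5 CPM in the furan control (0.83 ± 0.15), which furfural also raised (0.73 ± 0.15, at 39.3 and 35.1 CPM). The HMF and furfural calls of this gene were made in every fit that left out 1 library. For 15 of the 24 genes the 95% interval of the HMF fold change lay within 2-fold either way. Without furan control replicate 2, HMF gave 3 calls, 1 higher and 2 lower, while the share called over all genes went from 8.45% to 5.0%.

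Vanillin gave 5 calls higher and 2 lower among the 24, beside 8.83% and 10.4% of 17495 genes tested (19.2% in all). The level of ARZ_5091_T1 was 40.6 and 64.9 CPM with vanillin against 25.9 and 19.6 CPM in the control (1.20 ± 0.22), and that of ARZ_17157_T1 was 6.28 and 8.76 CPM against 3.80 and 2.04 CPM (1.35 ± 0.38). ARZ_12391_T1 (0.76 ± 0.16), ARZ_9278_T1 (0.66 ± 0.18) and ARZ_5123_T1 (0.57 ± 0.16) were called higher, and ARZ_18151_T1 and ARZ_11146_T1 (−1.38 ± 0.31) lower. None of the 7 calls was made in every fit that left out a library, and 1 to 6 members were called in those fits, with 1 without phenolic aldehyde control replicate 2 and 2 without either vanillin library. Over all genes the share called in those fits was 4.62% to 14.2%, so it was lower there too.

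Syringaldehyde gave 4 calls higher and 3 lower, beside 10.9% and 13.2% of genes tested (24.1% in all). ARZ_9278_T1 was at 41.0 and 57.0 CPM with syringaldehyde against 27.5 and 19.8 CPM in the control (1.05 ± 0.18), the 1 syringaldehyde call made in every fit that left out a library. ARZ_4442_T1, ARZ_13267_T1 and ARZ_5123_T1 (0.59 ± 0.16) were the others called higher, and ARZ_15220_T1 (−1.01 ± 0.27), ARZ_16199_T1 (−0.96 ± 0.25) and ARZ_11146_T1 (−1.11 ± 0.31) were called lower. ARZ_16199_T1 thus had calls in opposite directions with furfural and syringaldehyde. Without phenolic aldehyde control replicate 2, syringaldehyde gave 2 calls among the 24, and the share called over all genes was then 9.13%.

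With 4-hydroxybenzaldehyde 0 of the 24 passed the edgeR quasi-likelihood test after adjustment, beside 8.11% of genes tested (3.11% higher and 5.0% lower). At an unadjusted p under 0.05 there were 6 members, beside 25.4% of genes tested, and DESeq2 called 1, beside 11.8%. The lowest fitted values were −1.62 ± 0.51 for ARZ_9560_T1, at 49.2 and 42.7 CPM against 177 and 112 CPM, and −1.38 ± 0.44 for ARZ_4941_T1, at 55.2 and 61.1 CPM against 223 and 87.1 CPM. The treated libraries of both lay below both control libraries, though neither gene was called. How many of all genes were without overlap in this comparison was not counted. The highest was 0.71 ± 0.21 for ARZ_10024_T1, at 13.6 and 12.9 CPM against 8.53 and 7.99 CPM.

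Across inhibitors, ARZ_5123_T1 and ARZ_9278_T1 were called higher with formic acid, acetic acid, furfural, vanillin and syringaldehyde. Several of these calls rested on single libraries. For ARZ_5123_T1 the vanillin call was lost in all 4 fits that left out a library, the acetic acid call in 3 of 4 and the syringaldehyde call in 2 of 4. For ARZ_9278_T1 the vanillin call was lost in 3 of 4 and the acetic acid call in 2 of 4. ARZ_5091_T1 was called higher with formic acid, furfural, HMF and vanillin. Its vanillin call was lost in 1 of 4 fits that left out a library. ARZ_15220_T1 was called higher with formic acid and lower with furfural and syringaldehyde, and ARZ_11146_T1 higher with formic acid and lower with vanillin and syringaldehyde. The syringaldehyde calls of both were lost in 2 of 4 such fits and the vanillin call of ARZ_11146_T1 in 3 of 4. The furfural call of ARZ_15220_T1 was made in all 4. These values come from separate fits of 3 experiments, and the differences between experiments were not tested.

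Profiles of the 24 genes across the 20 libraries were compared by Pearson's r of log2(CPM + 1), each centred on the mean of its experiment. The correlations are descriptions over libraries that share the formic acid step by the choice of the genes. Over the 190 pairs of the 20 members with at least 10 CPM with formic acid, r ran from 0.106 to 0.951 with a median of 0.690. The closest pairs were ARZ_5123_T1 with ARZ_1462_T1 (r = 0.951), ARZ_4442_T1 with ARZ_13267_T1 (0.946) and ARZ_1462_T1 with ARZ_8038_T1 (0.931). Over the 14 libraries outside the weak acid experiment the same pairs had r of 0.841, 0.946 and 0.519. The profiles of ARZ_4442_T1 and ARZ_13267_T1 were thus as alike without the acids as with them, with the step at syringaldehyde shown in the plot of these genes by library. For 10 of the 24 genes the closest profile among 12861 genes belonged to another member; for ARZ_18338_T1 it was ARZ_13634_T1 (r = 0.909), and for ARZ_18151_T1 it was ARZ_16658_T1 (r = 0.932), which had an R of 0.65 with formic acid and −1.78 with acetic acid.

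The 69 genes that passed the same formic acid conditions with an R with acetic acid of 0.5 or more differ from the 24 by the rule in their acetic acid response, with a median R of 1.03 against 0.29. Their median R with formic acid was 1.69, against 1.92 for the 24 and −0.06 for all genes. The mirror group of 19 genes, with acetic acid in the place of formic acid in the rule, had a median R of 1.69 with acetic acid and −0.03 with formic acid. With the other 5 inhibitors the median R of the 24 ran from −0.25 with 4-hydroxybenzaldehyde to 0.26 with vanillin, and that of the 69 from −0.26 with syringaldehyde to 0.27 with furfural. For the 19 it ran from −0.40 with syringaldehyde to 0.06 with 4-hydroxybenzaldehyde, and for all genes from −0.05 to 0.00. No test was made of these differences.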

How the data were processed

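Per the labels' protocols, RNA was extracted with Trizol and sequenced from Ion Proton libraries. The deposited values are whole-number read counts per gene for 18830 identifiers in 3 tables, 1 per experiment. The aligner, counter and fungal gene models, and the treatment of reads that match several near-identical genes, are not given in the sources consulted, so levels of close copies are uncertain. The build in the submitters' processing notes is a pig assembly and was not used.

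R was computed from CPM by column sum. All 24 genes passed edgeR's filterByExpr in the 3 experiments. One model per experiment, holding every group, was fitted with edgeR 4.0.16 under R 4.3.3. It used TMM scaling and two-sided robust quasi-likelihood F-tests, with p-values adjusted by Benjamini-Hochberg over all genes tested; a call is an adjusted p under 0.05. Fold changes with SE and 95% intervals come from these fits, and levels are CPM by column sum. The tests were tried on simulated counts with the same spread in every gene, which does not cover genes whose replicates differ widely. Molar doses used rdkit 2024.09.2, and figures matplotlib 3.10.9.

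Alternatives were DESeq2 1.42.0 (Wald test), scaling by median of ratios, dropping the filter or asking for 10 CPM in at least 2 libraries, fitting just the pair of groups compared, a replicate block, and leaving out each library, where the spread of a lone library is taken from the rest. All 24 genes are described. Genes named in detail followed a rule: largest R, highest level, extremes with each inhibitor, both sides of each threshold, neighbouring numbers, closest profiles, and replicate gaps. The members and lists were chosen with earlier results of these data known.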

Additional observations from a re-analysis of the deposited data

How the results depend on the processing

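Applied again, the rule gave 27 genes with a pseudocount of 0.5 (21 of the 24 among them), 20 with 5 (17 shared) and 27 with TMM-scaled CPM (22 shared). Leaving out 1 weak acid library gave 13 to 28 genes, the fewest without control replicate 1, where 12 of the 24 were found again; 9 of the 24 were found in all 6 of these repeats. Over left-out libraries, calls among the 24 ran from 22 to 23 with formic acid (23.4% to 35.5% of all genes) and stayed at 22 between the acids (9.57% to 17.0%). The range was 3 to 7 for acetic acid (22.5% to 33.3%), 9 to 12 for furfural (19.8% to 26.1%), 1 to 3 for HMF (2.73% to 13.4%), 1 to 6 for vanillin (4.62% to 14.2%), 2 to 10 for syringaldehyde (9.13% to 32.9%) and 0 to 1 for 4-hydroxybenzaldehyde (0.639% to 3.87%). For 4-hydroxybenzaldehyde the count was 2 of 15 with a minimum of 10 CPM, 1 with DESeq2 and 6 with only the 2 groups in the fit, where 13.4%, 11.8% and 18.7% of all genes were called against 8.11% in the reported fit. For syringaldehyde it was 3 with only the 2 groups, where the share of all genes was 12.0% against 24.1%. The cause was not tested. With the replicate number as a block the counts were 22 for formic acid against the control (40.5% of all genes), 22 between the acids (25.9%) and 6 for acetic acid (38.8%). They were 7 for vanillin (17.8%), 8 for syringaldehyde (22.5%) and 0 for 4-hydroxybenzaldehyde (7.1%). For furfural the block was fitted to furfural and its control only. It gave 14 calls (44.0%), against 13 (39.5%) for the same 2 groups without a block. Replicate differences of same-numbered groups correlated by −0.136 to 0.202 across genes. In the weak acid experiment r was 0.202 for control and formic acid, 0.143 for control and acetic acid and 0.0267 for the acids. With 2 libraries in each group, these values cannot decide whether same-numbered libraries shared a batch. No block could be had for HMF. Of 199 refits of the formic acid fold change of 20 named members, 197 kept direction and call and 2 gained the call.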

Other observations

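Beyond the 24 genes, a few neighbours by identifier number also had an R of 1 or more with formic acid, and others had −1 or less. Over all 18830 genes, 467 had an R of 1 or more with formic acid and 702 had −1 or less. ARZ_10026_T1, 2 numbers from ARZ_10024_T1, had an R of 1.55 with formic acid and 0.54 with acetic acid, and ARZ_13269_T1, 2 numbers from ARZ_13267_T1, had 1.29 and 0.98. ARZ_18152_T1, next to ARZ_18151_T1, had an R of 1.06 with formic acid and 0.57 with acetic acid, where ARZ_18151_T1 had −1.47 with acetic acid. In the other direction, ARZ_6613_T1, next to ARZ_6612_T1, had an R of −1.57 with formic acid. ARZ_13268_T1, next to ARZ_13267_T1, had −1.18, and ARZ_4440_T1 and ARZ_4441_T1, near ARZ_4442_T1, had −1.04 each. Over 9723 pairs of genes with adjacent numbers the median r of the profiles was 0.0965, and 1.70% of the pairs had an r of at least 0.8. At a distance of 100 numbers the median was 0.0215 and the share 0.381% of 8921 pairs. These genes were chosen after their values were seen, and no test was made.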
